A study of Rattus norvegicus with 18 samples.

Results

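Solute carriers are the membrane proteins, named Slc with a subfamily number, that move amino acids, sugars, fatty acids, nucleosides, metals and other small molecules across cell and organelle membranes. The 86 solute carrier genes described here were taken from 4616 named genes with a value on 2-colour microarrays of whole rat lung. They are the genes whose symbol on the array starts with Slc and a digit and which had a value in at least 12 of 18 samples. The array carries 99 such symbols, of which 12 had a value in fewer samples and 1, Slc22a8, in none. The members fall into 23 subfamilies, and the mitochondrial carriers of subfamily 25 make up 24 of them. Slc4a1ap is an adaptor protein that carries the letters in its symbol without being a carrier, and Slc3a2 is the heavy chain of amino acid exchangers.

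Rats breathed diluted cigarette smoke or conditioned fresh air through the nose only. Each session lasted 1 hour, with 2 sessions a day split by a pause of 30 minutes, on 5 days a week. Smoke at the low dose held 300 µg and at the high dose 600 µg of total particulate matter in a litre. Exposure went on for 2, 7 or 13 weeks, and after the final session lungs were taken at 2, 6 or 20 hours. Each of the 18 samples is the log2 ratio of RNA pooled from 4 smoke-exposed rats over RNA pooled from 4 air-exposed rats, and the labels give no strain, sex or age. For the same weeks and hours, both doses were set against the same air pool, so there were 9 air pools in all. Every condition had 1 sample and no replicate. Errors are limma's standard errors, in which the spread of a gene is drawn towards that of all genes. They are taken over the combinations of weeks and hours at a dose, 9 unless stated, and hold both pool error and change with time. Smoke-exposed RNA carried Cy5 in every sample, so a constant dye effect adds to each ratio against air and cancels between the doses. A sample gave values for 3919 to 4583 named genes, 78 to 86 of them members, and precision is limited by how few arrays there are. The ratios give no level of a gene, so the absence of a cell type's markers could not be checked.

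Amino acid carriers of subfamilies 1, 6, 7 and 38 set the supply of glutamine, proline, taurine and neurotransmitter amines to a cell. Monocarboxylate carriers of subfamily 16 move lactate and pyruvate, and subfamily 27 proteins take up fatty acids and activate them with coenzyme A. The lung vascular bed is known for clearing serotonin and adenosine from blood, through the serotonin transporter Slc6a4 and the nucleoside transporter Slc29a1. Carriers of subfamily 25 sit in mitochondrial membranes and exchange metabolites between the matrix and the cytosol.

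At the high dose 9 solute carrier genes rose and 5 fell against air. The largest rises were in Slc6a20a, a proline and imino acid transporter, Slc27a2, a very long chain fatty acid transport protein and acyl-CoA synthetase, and Slc16a11, a monocarboxylate transporter. The largest falls were in Slc6a4 and Slc29a1. A gene was called where limma's adjusted p, by Benjamini-Hochberg over 4016 genes, was under 0.05, and 84 members could be tested. The 14 called members are 16.7% of those tested, against 17.2% of all genes. Higher calls made up 10.7% of the members against 9.56% of all genes, and lower calls 5.95% against 7.64%. The median of the members' mean log2 ratios was 0.03, against 0.003 over all genes, and the median size without regard to sign was 0.083 against 0.086. As a group the solute carriers were thus called about as often as the array as a whole.

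**Figure D1:**
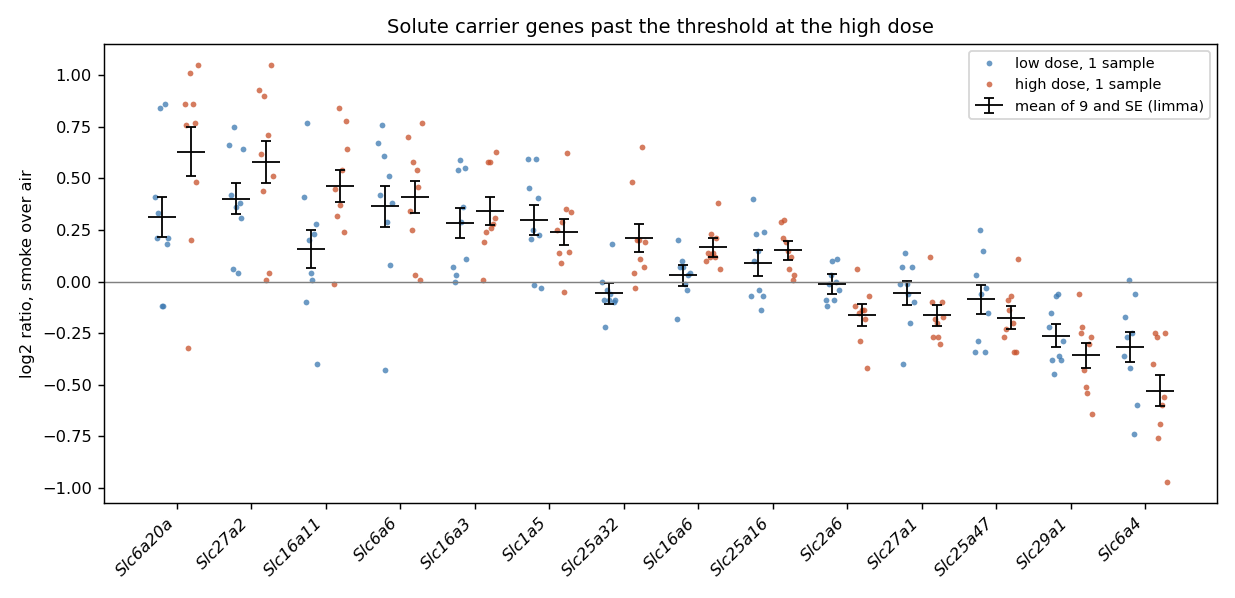
Log2 ratio of smoke over air (y axis) for the 14 solute carrier genes past the threshold at the high dose (x axis), with 1 point for each low-dose (blue) and high-dose (orange) sample. Black bars show the mean of 9 samples and its limma standard error; Slc29a1 lies below 0 in every sample of both doses and Slc27a2 above 0 in every sample.

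Among carriers of amines and amino acids that run on sodium and chloride (subfamily 6, 9 members), 2 rose and 1 fell at the high dose. Slc6a20a ranged at the high dose from -0.32 over a median of 0.77 to 1.05. It was above air in 8 of 9 high-dose samples, and the sample below air was that of 2 weeks and 20 hours. The mean rose by 0.63 ± 0.12 (SE, n = 9), a fold of 1.55, with limma adjusted p = 0.00261. At the low dose Slc6a20a ranged from -0.12 over 0.21 to 0.86 around a mean of 0.31, with limma adjusted p = 0.0872.

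Slc6a6 carries taurine, an osmolyte and antioxidant amino acid. At the high dose its values ran from 0.01 over a median of 0.46 to 0.77, all of them above air, and the pair of smallest values were those taken at 6 hours after 7 and 13 weeks. The mean was 0.41 ± 0.08 (limma adjusted p = 0.00326). The low-dose values ran from -0.43 over 0.42 to 0.76, with 8 of 9 above air and a mean of 0.37 ± 0.10 (limma adjusted p = 0.0475).

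Slc6a4, the serotonin transporter, was below air in all 9 high-dose samples, which ran from -0.97 over a median of -0.56 to -0.25. The lowest value was that of 13 weeks and 20 hours. The mean fell by 0.53 ± 0.08 on the log2 scale, to 0.694 of the air level (limma adjusted p = 0.000336). Low-dose values ran from -0.74 over -0.27 to 0.01, with a mean of -0.32 ± 0.07 (limma adjusted p = 0.0222). The other 6 members of this subfamily did not pass the test, among them the dopamine transporter Slc6a3 with a high-dose mean of 0.06 and Slc6a14, a broad amino acid transporter, with 0.13.

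Of 9 carriers of other amino acids (subfamilies 1, 3, 7 and 38), 8 were tested and 1, Slc1a5, rose. Slc1a5 takes up glutamine and other neutral amino acids. Its high-dose values ran from -0.05 over 0.25 to 0.63, with 8 of 9 above air and a mean of 0.24 ± 0.06 (limma adjusted p = 0.0169). The low-dose mean was 0.30 ± 0.07 (limma adjusted p = 0.0273), which made Slc1a5 the only member called at the high dose whose change was not larger there than at the low dose. It is also the only member read by more than 1 distinct probe. Its 2 probes had means of 0.22 and 0.26 at the high dose and 0.17 and 0.43 at the low dose, and with the first probe alone the low-dose call was lost. The heavy chain Slc3a2 had a mean of 0.16 ± 0.06 at the high dose (limma adjusted p = 0.0708), and its light chain Slc7a5, which carries large neutral amino acids, had -0.06.

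Of the 6 monocarboxylate carriers, 3 rose at the high dose and none fell, where 9.56% of all genes rose and 7.64% fell. Slc16a3, the lactate exporter of glycolytic cells, was above air in all 9 high-dose samples, from 0.01 over 0.28 to 0.63. The lowest value was that of 2 weeks and 2 hours. Its mean was 0.34 ± 0.07 at the high dose (limma adjusted p = 0.00313) and 0.28 ± 0.07 at the low dose (limma adjusted p = 0.0387), where values ran from 0.00 over 0.29 to 0.59.

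Slc16a11 ran from -0.01 over 0.45 to 0.84 at the high dose. Of these samples 8 lay above air and the one below it, of 2 weeks and 2 hours, was close to 0. The mean was 0.46 ± 0.08 (limma adjusted p = 0.00124), against 0.16 ± 0.09 at the low dose (limma adjusted p = 0.379). Slc16a6, which exports ketone bodies from liver cells, was above air in all 9 high-dose samples, between 0.06 and 0.38, with a mean of 0.17 ± 0.05 (limma adjusted p = 0.0245). The other 3 did not pass, with high-dose means of 0.08 for the lactate importer Slc16a1, 0.04 for Slc16a8 and -0.11 for the pyruvate carrier Slc16a7.

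The 2 fatty acid carriers on the array went opposite ways at the high dose. Slc27a2 was above air in all 18 samples. Its values ran from 0.01 over 0.62 to 1.05 at the high dose and from 0.04 over 0.38 to 0.75 at the low dose. The means were 0.58 ± 0.10 (limma adjusted p = 0.00157) and 0.40 ± 0.08 (limma adjusted p = 0.00608). Slc27a1, the fatty acid transport protein of muscle and fat, was below air in 8 of 9 high-dose samples, from -0.30 over -0.18 to 0.12, with a mean of -0.16 ± 0.05 (limma adjusted p = 0.0419).

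Of the 2 nucleoside carriers, Slc29a1, which takes up adenosine, fell and its relative Slc29a2 did not pass the test. Slc29a1 was below air in all 18 samples. It ran from -0.64 over -0.30 to -0.06 at the high dose and from -0.45 over -0.29 to -0.06 at the low dose. The means were -0.36 ± 0.06 (limma adjusted p = 0.0013) and -0.26 ± 0.06 (limma adjusted p = 0.014). Slc29a2 had means of -0.14 and -0.13 and was below air in all 9 low-dose samples.

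Among the 24 mitochondrial carriers 2 rose and 1 fell at the high dose, and their means ran from -0.17 to 0.23. Slc25a32, which carries folate or its relatives into mitochondria, ran from -0.03 over 0.19 to 0.65, with the highest values at 2 hours after 2 and 13 weeks. Its mean was 0.21 ± 0.07 (limma adjusted p = 0.0451). Slc25a16 was above air in all 9 high-dose samples, between 0.01 and 0.30, with a mean of 0.15 ± 0.05 (limma adjusted p = 0.0441). Slc25a47, a carrier best known from liver, was below air in 8 of 9 samples, from -0.34 to 0.11, with a mean of -0.17 ± 0.05 (limma adjusted p = 0.0395). None of the 24 was called at the low dose, where the means ran from -0.19 to 0.15.

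The 6 sugar carriers held 1 call, in Slc2a6, a glucose transporter relative of lysosomes. It was below air in 8 of 9 high-dose samples, from -0.42 over -0.14 to 0.06, with a mean of -0.16 ± 0.05 (limma adjusted p = 0.0468), and stood at -0.01 at the low dose. The fructose transporter Slc2a5 had a high-dose mean of 0.07.

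No member was called among 7 carriers of inorganic ions (with Slc4a1ap counted there), 9 of organic ions, 2 of metals, 2 of nucleotide sugars, 2 of vitamins and 6 of vesicles and lysosomes, of which 5 were tested. High-dose means ran from -0.15 to 0.17 in the inorganic ion group, whose ends were the anion exchanger Slc4a3 and the potassium chloride cotransporter Slc12a4. They ran from -0.10 to 0.16 in the organic ion group, whose subfamily 22 members include Slc22a4, a carrier of ergothioneine and carnitine, at 0.16. Slc22a17, known as a receptor for lipocalin, had 0.11. The folate carriers Slc46a1 and Slc19a1 had 0.14 and -0.02. Of the members that did not pass, the largest high-dose means were in Slc39a8, an importer of zinc, manganese and cadmium, with 0.31 ± 0.11 (limma adjusted p = 0.0594), the mitochondrial ornithine carrier Slc25a15 with 0.23, the lysosomal sialic acid carrier Slc17a5 with 0.22, and Slc12a4 with 0.17.

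The widest ranges over the 18 samples among members that were not called lay in 4 genes. They were 1.70 for Slc25a51, a mitochondrial NAD carrier, 1.68 for Slc39a8, 1.57 for Slc25a46, a mitochondrial outer membrane protein, and 1.38 for the glutamate transporter Slc1a3. Slc25a51 had its lowest value, -0.84, at the low dose and its highest, 0.86, at the high dose, both after 7 weeks. Slc25a46 ran from -0.79 to 0.78 and Slc1a3 from -0.58 to 0.80, with both ends of both genes at the low dose. The member with the fewest values, Slc25a40, had 12, from -0.20 to 0.58, and was tested. Slc7a3 and Slc17a8 had 13 each and could not be tested, since tests required both doses in at least 6 of 9 combinations. Just outside the rule were Slc7a4 with 11 values, from -0.69 to 0.39, and Slc6a13 with 10, from -0.64 to 0.34.

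**Figure D2:**
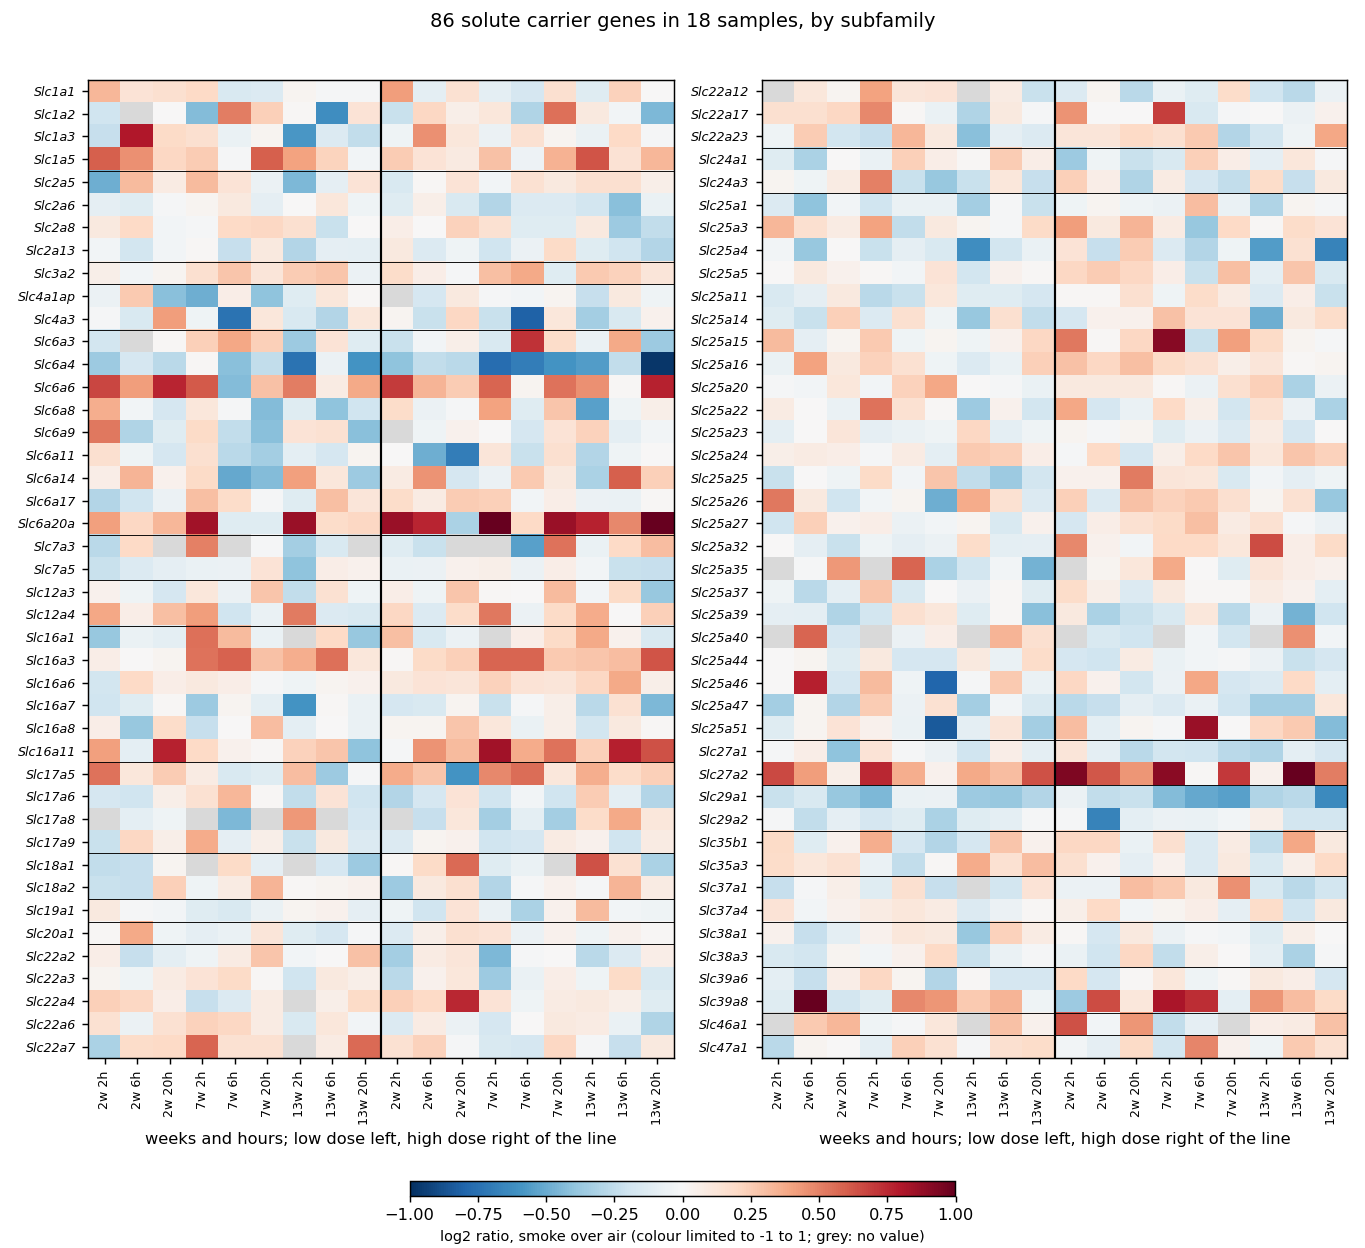
Log2 ratio of smoke over air for 86 solute carrier genes (rows, ordered by subfamily, with lines between subfamilies) in 18 samples (columns, weeks and hours, low dose left and high dose right of the vertical line). Red is above and blue below air, the colour stops at 1 and -1, and grey marks no value; Slc27a2 is red and Slc29a1 blue in every column.

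Sign alone gave a like picture. Of 77 members with all 9 high-dose values, 5 were above air in every sample, 6.49% against 5.11% of all genes. They were Slc6a6, Slc16a3, Slc16a6, Slc25a16 and Slc27a2. Another 2, Slc6a4 and Slc29a1, were below air in every sample, 2.6% against 3.46%. The 14 calls at the high dose were 8 without the combination of 7 weeks and 2 hours and also 8 without that of 13 weeks and 2 hours. In each case the calls lost were those of Slc16a6, Slc25a16, Slc25a32, Slc25a47, Slc27a1 and Slc2a6.

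At the low dose 4 members rose and 2 fell, which is 7.14% of the 84 tested against 4.96% of all genes. Those called were Slc27a2, Slc6a6, Slc1a5, Slc16a3, Slc6a4 and Slc29a1, each also called at the high dose with the same sign against the same air pools. Higher calls made up 4.76% of the members against 3.51% of all genes, and lower calls 2.38% against 1.44%. The median over the members was 0.002, against -0.002 over all genes. Of 73 members with all 9 low-dose values, 1 was above air in every sample (Slc27a2), 1.37% against 2.41% of all genes. Below air in every sample were 3, Slc29a1, Slc29a2 and the mitochondrial citrate carrier Slc25a1, 4.11% against 1.37%. The 6 calls were 3 without the combination of 2 weeks and 2 hours, 7 weeks and 20 hours, or 13 weeks and 20 hours, and 2 without that of 13 weeks and 2 hours. Slc27a2 and Slc29a1 were the pair left in the last case.

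**Figure D3:**
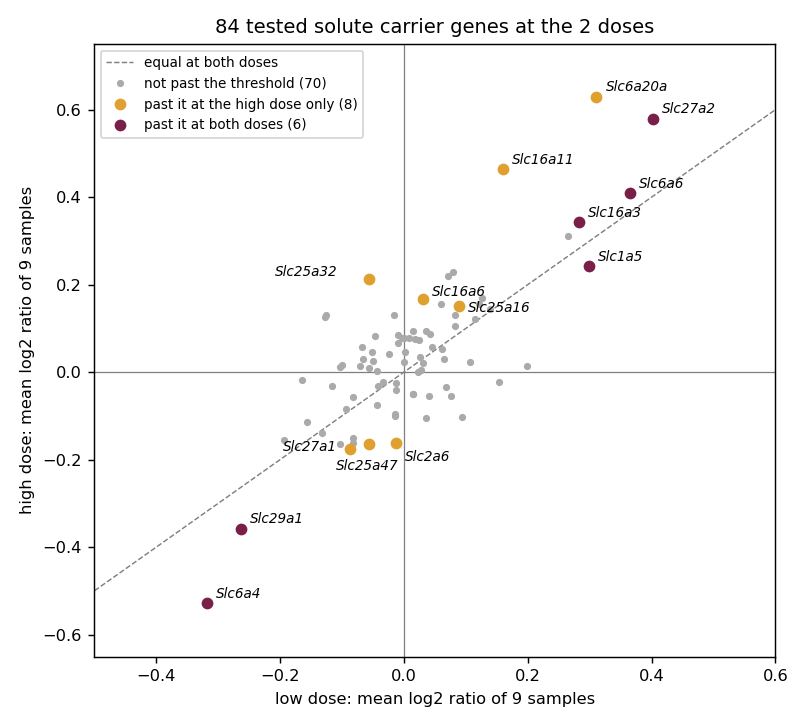
Mean log2 ratio of 9 samples at the high dose (y axis) against that at the low dose (x axis) for 84 tested solute carrier genes, with called genes named and coloured; the dashed line marks equal means. Both means share the air pools, and of the 14 called genes only Slc1a5 lies nearer to 0 at the high dose.

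For the members called at both doses, the 250 bases before the annotated gene start are printed where the promoter table of RefSeq for GRCr8 has an entry; Slc6a4 and Slc1a5 were not matched. They were searched on both strands for the core letters of 4 elements that smoke constituents and amino acid stress are known to act through: GCGTG, the core of the xenobiotic element of the aryl hydrocarbon receptor, TGACNNNGC, that of the antioxidant element, TGANTCA, the AP-1 element, and TGATGNAA, an amino acid response element. Capitals mark matches in either orientation, and bases without capitals hold none of the 4.
Slc27a2, chr3:134257851-134258100, plus strand: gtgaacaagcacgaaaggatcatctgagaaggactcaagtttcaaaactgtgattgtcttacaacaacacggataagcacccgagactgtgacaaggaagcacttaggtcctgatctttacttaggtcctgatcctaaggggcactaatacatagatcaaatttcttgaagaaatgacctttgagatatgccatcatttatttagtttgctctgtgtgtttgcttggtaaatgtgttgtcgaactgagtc
Slc6a6, chr4:125752252-125752501, plus strand: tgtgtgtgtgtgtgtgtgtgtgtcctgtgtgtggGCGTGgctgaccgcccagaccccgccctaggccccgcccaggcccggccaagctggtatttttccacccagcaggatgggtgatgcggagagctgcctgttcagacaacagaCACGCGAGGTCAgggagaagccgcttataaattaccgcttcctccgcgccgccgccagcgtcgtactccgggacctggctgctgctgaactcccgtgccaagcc
Slc16a3, chr10:106712078-106712327, plus strand: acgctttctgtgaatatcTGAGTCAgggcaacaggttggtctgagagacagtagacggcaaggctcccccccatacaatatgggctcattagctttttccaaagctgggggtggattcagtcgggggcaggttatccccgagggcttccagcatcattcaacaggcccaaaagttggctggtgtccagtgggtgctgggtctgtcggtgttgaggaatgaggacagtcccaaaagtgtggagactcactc
Slc29a1, chr9:22896849-22897098, plus strand: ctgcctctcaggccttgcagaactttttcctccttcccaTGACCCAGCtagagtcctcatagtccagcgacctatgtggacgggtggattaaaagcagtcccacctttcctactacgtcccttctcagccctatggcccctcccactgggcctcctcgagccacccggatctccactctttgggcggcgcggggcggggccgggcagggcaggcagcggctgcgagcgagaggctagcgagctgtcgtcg
The Slc6a6 window holds GCGTG from -216 to -212 and, on the minus strand, from -104 to -100, where it overlaps a TGACNNNGC match from -101 to -93. The Slc16a3 window holds TGANTCA, which reads alike on both strands, from -232 to -226. The window of Slc29a1, a gene that fell, holds TGACNNNGC from -211 to -203, and that of Slc27a2 holds none of the 4.

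Such matches are common. GCGTG was found in 46.7% of 75 windows of 70 members (some genes have more than 1 entry), 42.6% of 3454 windows of the genes tested and 25.9% of all 33469 windows in the table. TGACNNNGC was found in 17.3%, 13.1% and 10.1% of them, TGANTCA in 8.0%, 5.27% and 6.34%, and TGATGNAA in 1.33%, 2.17% and 3.40%. Median GC content was 59.2% in the members' windows, 60.4% in those of the genes tested and 51.2% in all. Of the 14 members called at the high dose 10 had an entry. GCGTG was in 2 of the 6 that rose (Slc6a6 and Slc25a16) and 2 of the 4 that fell (Slc27a1 and Slc2a6).

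Between the doses no member passed the test, against 0.174% of all genes. An unadjusted limma p under 0.05 was found for 7 of 84 members and 398 of 4016 genes. Of the 7, 6 were higher at the high dose, namely Slc25a32, Slc6a20a, Slc16a11, Slc25a51, Slc25a1 and Slc16a6, and Slc6a4 was lower. The median difference, high minus low, was 0.04 over the members and 0.007 over all genes. Slc25a32 had the smallest p, with a difference of 0.27 ± 0.06 (limma adjusted p = 0.0792). It was higher at the high dose in all 9 pairs, the only member to be so among 71 with 9 pairs, 1.41% against 0.618% of all genes. Its low-dose values lay between -0.22 and 0.18 and its high-dose values between -0.03 and 0.65. For Slc6a20a the difference was 0.32 ± 0.13 (limma adjusted p = 0.383), and for Slc6a4 it was -0.21 ± 0.08 (limma adjusted p = 0.407). For Slc6a6 and Slc16a3, called at both doses, the differences were 0.04 ± 0.09 and 0.06 ± 0.08.

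Over the hours since the last session, tested by limma's F test on the 9 means of the samples that share an air pool, no member of 83 passed, against 1.63% of all genes. At an unadjusted p under 0.05 there were 16 of 83 members and 653 of 3994 genes. Slc12a4, which moves potassium and chloride out of cells and sets their volume, had the smallest p (limma adjusted p = 0.0732). Its 3 high-dose values at 2 hours were 0.21, 0.53 and 0.37 after 2, 7 and 13 weeks, and its low-dose values were 0.39, 0.42 and 0.52. At 6 hours the high-dose values were -0.14, -0.06 and 0.00 and the low-dose values 0.07, -0.20 and -0.14. Low and high samples of a combination share an air pool. How many of all genes separate the 2 times as fully was not counted. At 20 hours the means were 0.20 at the high and 0.03 at the low dose.

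In the pairwise difference of 6 minus 2 hours, Slc12a4 was lower at 6 hours by -0.49 ± 0.10, with limma adjusted p = 0.0414. That is 1 member of 83, 1.2%, against 1.48% of all genes. For 20 minus 2 hours and 20 minus 6 hours no member passed, against 0.726% and 0.926%. The call was lost in 8 of the 9 fits that left out 1 combination of weeks and hours, where the adjusted p ran up to 0.208, and kept without that of 2 weeks and 2 hours. It was also lost at either dose alone, with -0.44 at the high dose (limma adjusted p = 0.154) and -0.53 at the low dose (limma adjusted p = 0.193).

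Slc6a6 was also low at 6 hours, with means over both doses of 0.59 at 2 hours, 0.08 at 6 hours and 0.50 at 20 hours, and a limma adjusted p of 0.0826 in the F test. Slc6a20a stood at 0.79 at 2 hours, 0.29 at 6 hours and 0.34 at 20 hours (limma adjusted p = 0.188). Slc39a8 was highest at 6 hours, with 0.15, 0.64 and 0.07 in the same order (limma adjusted p = 0.223). These 3 are values of genes that did not pass. Slc16a11 had means over both doses of 0.32, 0.30 and 0.31 in the same order, but the doses were not level. Its means were 0.28, 0.07 and 0.13 at the low dose and 0.36, 0.53 and 0.50 at the high dose.

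**Figure D4:**
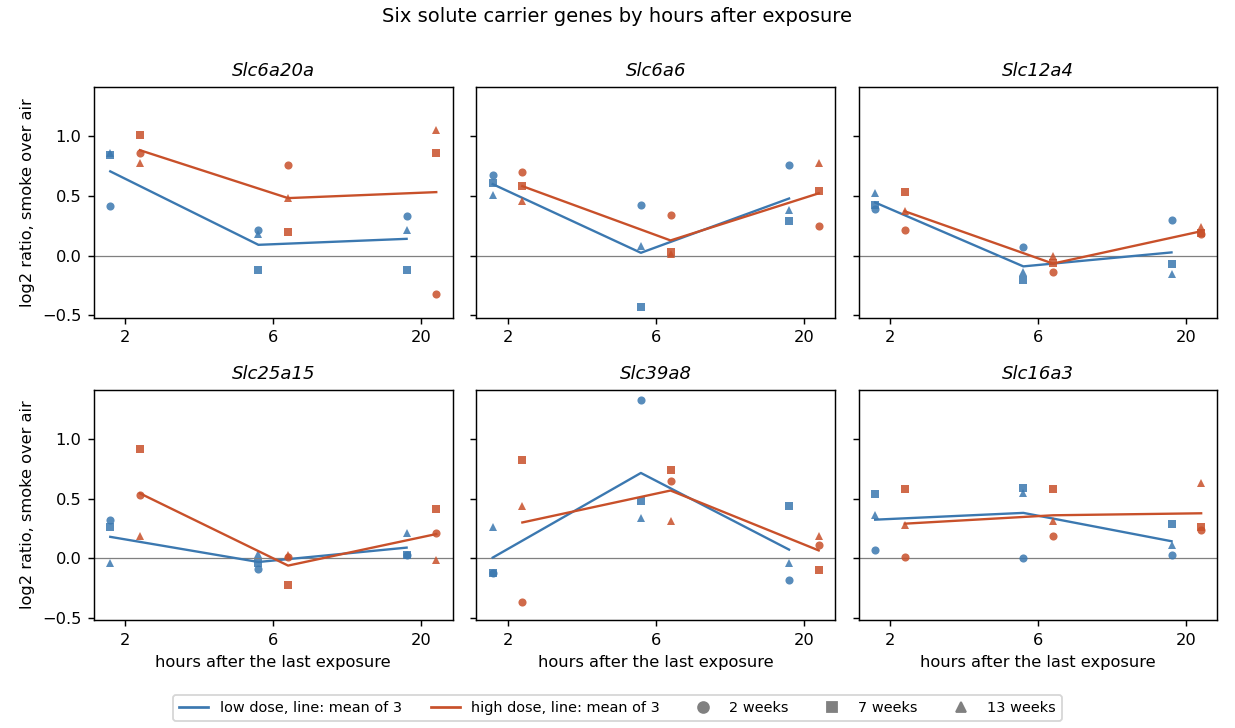
Log2 ratio of smoke over air (y axis) by hours after the last session (x axis, evenly spaced) for 6 solute carrier genes chosen after their values were seen; points are samples, shaped by weeks, and lines join the means of 3 at each dose. Slc12a4, the member with the smallest p over hours, lies at 0.21 or above at 2 hours and at 0.07 or below at 6 hours. Low and high samples of the same weeks and hours share an air pool.

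Over the weeks of exposure no member passed the F test, against 0.125% of all genes. An unadjusted limma p under 0.05 was found for 4 of 83 members and 247 of 3994 genes. Slc16a3 had the smallest, with means over both doses of 0.09 after 2 weeks, 0.47 after 7 weeks and 0.37 after 13 weeks (limma adjusted p = 0.614). After 2 weeks its 3 high-dose values were 0.01, 0.19 and 0.24 and its low-dose values 0.07, 0.00 and 0.03. After 7 weeks they were 0.58, 0.58 and 0.26 at the high dose and 0.54, 0.59 and 0.29 at the low dose. Slc6a4 stood at means over both doses of -0.29, -0.45 and -0.53 after 2, 7 and 13 weeks (limma adjusted p = 0.906). In the same order the means were -0.27, -0.22 and -0.47 at the low dose and -0.31, -0.68 and -0.59 at the high dose. Whether the dose difference changed with hours or with weeks was tested on the 9 pairs: 0 of 83 members passed either F test, against 0% of all genes in both, and 3 members had an unadjusted limma p under 0.05 in each, as did 145 genes for hours and 192 for weeks.

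Genes that work beside the solute carriers were read from lists chosen with earlier results of these data known. For comparison, 9.56% of all genes rose and 7.64% fell at the high dose. Of 6 tested transporters of the Slco family of organic anion carriers, none was called at the high dose. Of 17 tested genes with ABC transporter symbols, 5 rose and none fell. Abcg1, a sterol exporter, stood at 0.61 ± 0.10, Abcc9 at 0.49 ± 0.15 (n = 8) and the drug efflux pump Abcb1b at 0.48 ± 0.12 (n = 8). Of 3 tested sodium pump subunits, whose sodium gradient drives subfamily 6, Atp1b1 rose by 0.90 ± 0.09 and Atp1b2 fell by 0.22 ± 0.07. Of 9 sodium and water channel genes, the water channel Aqp4 rose by 0.25 ± 0.08 and Aqp5 fell by 0.29 ± 0.07.

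Among 6 tested partner proteins of carriers, Cd44 rose by 0.29, Nherf1, a scaffold of membrane transporters, rose by 0.24 and Nherf2 fell by 0.32. Of 7 genes of glutathione synthesis and cystine use 4 rose, among them Ggt1, which splits extracellular glutathione into amino acids, by 0.98 ± 0.12. Of 12 glycolysis genes, whose lactate Slc16a3 exports, 4 rose and 1 fell, with Aldoa at 0.38 ± 0.08 and Eno1 at 0.36 ± 0.05. Of 6 iron genes 3 rose, Ftl1 by 0.70 ± 0.10, and of 2 metallothioneins, which bind the metals Slc39a8 imports, Mt1 rose by 0.89 ± 0.08.

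In whole lung, fewer cells of a type and less RNA per cell cannot be told apart. Markers of several cell types moved with smoke at the high dose, where 9.56% of all genes rose and 7.64% fell. Of 4 endothelial markers, which mark a cell type known to take up serotonin through Slc6a4 in lung, 3 fell (Cdh5 by 0.35 ± 0.07, Tek by 0.24 ± 0.07 and Kdr by 0.17 ± 0.05) and Pecam1 did not pass. The mean of the 4 ran from -0.47 to 0.03 over the high-dose samples and from -0.43 to 0.11 over the low-dose samples. Of 9 macrophage markers 7 rose, Lgals3 by 1.28 ± 0.10 and Cd68 by 1.12 ± 0.10, and Adgre1 and Csf1r fell. Their mean ran from 0.27 to 0.72 at the high dose and from 0.18 to 0.51 at the low dose.

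All 9 tested lymphocyte markers fell at the high dose, with means over the list from -0.88 to -0.22 in the samples. Of 6 alveolar epithelial markers 3 rose and Aqp5 fell. Of 6 neutrophil markers 2 rose and 2 fell, 1 of 2 airway markers rose, and no marker of red blood cells (2 tested), platelets (1) or striated muscle (5) was called. The part of these marker changes in the solute carrier results was not tested.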

How the data were processed

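The authors deposited 1 table of 11994 rows with a log2 ratio per spot and sample, smoke (Cy5) over air (Cy3) per the labels, each labelled sample divided over 2 arrays. How spots were scanned, corrected for background and normalized is not given in the sources used here. Of 257 values under -1, 100% match log2 of a ratio with 2 decimals, and sample medians lie between -0.01 and 0.01. With ratios alone, brightness over background is unknown.

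Rows of a gene that repeat each other within 0.011 were merged, and a gene is the mean of its distinct probes (5936 in all). The 4016 genes with both doses in at least 6 of 9 combinations were tested with limma 3.58.1 in R 4.3.3 (lmFit and eBayes, two-sided): the 9 ratios of a dose and the 9 differences, high minus low, against 0, and hours and weeks by moderated F tests on 9 pool means, each with the other as a covariate (3994 genes). P values were adjusted by Benjamini-Hochberg over all genes, with 0.05 as the threshold. P values measure the spread between combinations, not between replicate pools. The scripts were tested on simulated data. Promoters came from RefSeq (GRCr8), matched by symbol. Figures were drawn with matplotlib 3.10.9.

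The members, lists and tests were chosen with earlier results of these data known. Members past the threshold are given by sample, along with the 4 largest and 4 most variable of the rest. Slc3a2, Slc7a5, Slc22a17 and other members that did not pass were named after their values were seen.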

Additional observations from a re-analysis of the deposited data

Results flagged for a closer look

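Single samples stood apart from the other 8 of their dose in 4 of 42 sets of 9 values, by Dixon's gap over range. Chance alone flags about 1 set in 20 where genes are not chosen by their values. That rate need not hold here, since the members were chosen by theirs. Slc39a8 and Slc25a51 are among the 4 chosen for the widest ranges. Slc27a1 at the high dose was 0.12 after 2 weeks and 2 hours, and the next highest value was -0.10. Slc39a8 at the low dose was 1.32 after 2 weeks and 6 hours, and the next was 0.48. Slc17a5 at the high dose was -0.60 after 2 weeks and 20 hours, and the next lowest was 0.11. Slc25a51 at the low dose was -0.84 after 7 weeks and 20 hours, and the next was -0.34. Slc12a4 differed between times, with -0.49 for 6 minus 2 hours over both doses (limma adjusted p = 0.0414), while the F test over the 3 times gave an adjusted p of 0.0732.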

How the results depend on the processing

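Of the 14 calls at the high dose, 5 were left without the 7 week samples, 6 without the 13 week samples, 5 without the 2 hour samples, 7 by the exact sign-flip permutation test, and 1 (Slc6a20a) where a change of 1.5-fold was also required. The 7 kept by the sign-flip test are those with 1 sign in all 9 high-dose samples, so this test repeats the count by sign. Leaving out 1 combination gave 8 to 13 calls, of which 8 to 11 were among the 14. Slc6a4 and Slc27a2 were called in 21 of 22 alternatives, and Slc2a6 in 5. Of the 6 calls at the low dose, 1 was left with trend and robust settings, 2 without the 2 week, 3 without the 7 week and 0 without the 13 week samples, 0 without the 2 hour samples, 1 when either the 6 hour or the 20 hour samples were left out, and 0 by the sign-flip test (which called 0 of all genes there and between the doses) or with 1.5-fold. Leaving out 1 combination gave 2 to 5. Fewer samples enter the fits that leave samples out. At the high dose, leaving out the 2 week samples gave 11 calls, 9 of them among the 14. Leaving out the 6 hour or the 20 hour samples gave 10 calls each, 8 of them among the 14. A sign-flip p over 9 values has a floor set by the number of sign patterns. At the low dose and between the doses, even genes with 1 sign throughout did not pass after adjustment. Otherwise, why the counts differ between settings was not tested. Over hours, leaving out 1 combination gave 0 to 1 calls (Slc6a20a without 2 weeks and 6 hours, Slc4a3 without 13 weeks and 6 hours). The dose difference and weeks had 0 calls in every alternative run, and no called member changed sign. The labels carry no replicate numbers to use as a block; the shared air pool pairs the doses, and high minus low was tested over those 9 pairs.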
